A study of Rattus norvegicus with 6 samples.

Results

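Collagen genes were followed across the wild type (WT) and Nono-knockout (Nono-KO) libraries of rat H9c2 cells. They were taken as every gene symbol of the count table that consists of Col, a type number, the letter a and a chain number. This gave 39 of 16319 gene symbols, of which 11 encode fibrillar chains, 5 encode type IV chains of the basement membrane, 5 encode type VI chains and 18 encode other types. RefSeq lists 5 further rat collagen symbols (Col23a1, Col25a1, Col28a1, Col4a4 and Col6a6), which were not analysed here.

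Collagens are extracellular proteins in which 3 chains wind into a helix along stretches rich in regularly spaced glycine. Fibrillar chains are cut at both ends after secretion and pack into cross-linked fibrils that give tissue its tensile strength, type IV chains form the sheet-like network of basement membranes, and type VI chains form beaded microfibrils around cells. In the heart most of this matrix is made by fibroblasts, and myocytes and myoblasts are surrounded by basement membrane.

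H9c2 cells are myoblasts cultured from the heart of a rat embryo, labelled here as cardiac muscle. RNA of WT cells and of cells carrying a frameshifting CRISPR-Cas9 deletion in an exon of Nono was sequenced as stranded, poly(A)-selected libraries, with 3 libraries in each group. The knockout cells received a Cas9 and guide plasmid, were selected with puromycin and, by the scheme of the study, expanded from a single clone, while a GFP plasmid is named as the control and it is not stated whether the WT libraries came from cells that had received it. Differences due to Nono therefore cannot be told apart from other differences between this clone and the WT cells.

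The libraries held 17612958 to 19253858 counts. Nono itself had 7329, 5884 and 5519 counts in WT against 109, 94 and 96 after knockout. Of the cardiac markers listed, Myh6, Myh7, Tnni3, Nppa, Tbx5 and Ryr2 were under 1 CPM, a count scaled to the size of its library, in both groups, and the 10 cardiac markers summed to 48.1 to 127 CPM in WT and 175 to 204 CPM in Nono-KO libraries. In that sum Tnnt2 had 13.4, 78.0 and 83.0 CPM in WT and 111, 135 and 137 CPM in Nono-KO libraries. Of the 5 cardiac markers tested, Actc1 and Nkx2-5 rose, while Tnnt2, Gata4 and Myh6 did not pass the test given below. The 6 skeletal myoblast markers summed to 149 to 193 and 441 to 495 CPM, and the 5 smooth muscle markers to 6356 to 7139 and 14321 to 15375 CPM. The 8 fibroblast markers, none of them a collagen, summed to 1036 to 1195 and 963 to 1015 CPM, with Pdgfra, Dcn and Lum under 1 CPM in both groups. The other fibroblast markers went both ways, with Thy1, Fbln1 and Fbln2 higher in Nono-KO libraries and Pdgfrb and Postn lower. Of the endothelial markers Pecam1, Kdr and Tek, none reached 1 CPM, and both macrophage markers together reached 6.47 CPM at most. The part of these differences in the collagen results was not tested.

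Before the values, the sequences at the starts of 4 collagen genes are shown, taken from RefSeq for the build GRCr8, while the counts were made on another build. The type I genes are not among them. Col4a1 and Col4a2 were both called higher, Col4a1 with overlapping groups and a call that was lost without some single libraries. They lie head to head, with 76 bases between their listed starts at chr16:84885521-84885596. The stretch is given on the plus strand, from the Col4a2 start towards the Col4a1 start, and it holds 78.9% G or C. Col18a1 and Col15a1, the 2 chains of the multiplexin class, moved in opposite directions, and the 250 bases before each listed start (chr20:11473395-11473644 and chr5:66297296-66297545, both plus strand) are given 5′ to 3′. Capitals mark GGGCGG, the GC box, on either strand.
Col4a2-Col4a1: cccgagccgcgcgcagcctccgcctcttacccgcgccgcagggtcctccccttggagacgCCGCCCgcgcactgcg
Col18a1: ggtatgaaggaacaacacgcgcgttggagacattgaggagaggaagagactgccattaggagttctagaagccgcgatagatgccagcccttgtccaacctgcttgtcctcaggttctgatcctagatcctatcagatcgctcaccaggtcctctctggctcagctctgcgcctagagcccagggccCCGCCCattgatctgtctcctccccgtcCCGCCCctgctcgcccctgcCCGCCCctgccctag
Col15a1: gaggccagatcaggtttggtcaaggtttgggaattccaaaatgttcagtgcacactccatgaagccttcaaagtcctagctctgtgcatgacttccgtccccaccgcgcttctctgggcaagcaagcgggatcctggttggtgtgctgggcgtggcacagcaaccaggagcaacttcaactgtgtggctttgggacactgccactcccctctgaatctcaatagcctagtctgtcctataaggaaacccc
The shared stretch of Col4a1 and Col4a2 holds 1 GC box and the Col18a1 window holds 3, while the Col15a1 window holds 0. Over the listed 250-base windows, genes that rose had from 0 GC boxes (Col10a1) to 5 (Col8a2). Genes that fell had from 0 (Col15a1) to 4 (Col8a1). The called genes Col1a1, Col2a1 and Col12a1 have no listed window and are left out of these ranges. The CCAAT box, the AP-1 motif TGANTCA and the TEAD motif GGAATG were searched on both strands too and are in none of the 3 stretches. The stretch of Col4a1 and Col4a2 is shorter than the other 2. In their full windows of 250 bases, Col4a1 has 1 CCAAT box and 1 GC box. Col4a2 has 1 CCAAT box and 2 GC boxes. No use of these motifs was measured.

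Both chains of type I collagen fell in Nono-KO cells, Col4a2 of type IV rose, and the largest changes were those of Col10a1, Col18a1, Col2a1 and Col15a1. Of the 39 members, 26 had enough counts to be tested. Of these 7 rose, 9 fell and 10 did not pass, by a Benjamini-Hochberg adjusted p below 0.05 in edgeR's quasi-likelihood test over all 12028 genes tested. The share called was 61.5%, against 72.2% of all genes tested, and the shares that rose and fell were 26.9% and 34.6%, against 34.2% and 38.1%. The median log2 fold change, positive where Nono-KO was higher, was -0.06 over the collagen genes and -0.05 over all genes tested. The share called was thus no higher among collagen genes than among all genes. By type, 1 fibrillar gene rose, 5 fell and 5 did not pass, and 2 type IV genes rose and 1 fell. Of 2 tested type VI genes 1 rose, and of 10 tested genes of other types 3 rose, 3 fell and 4 were not called. Under the thresholds of the study, adjusted p below 0.01 with a log2 fold change beyond 1 either way, Col10a1, Col18a1 and Col2a1 rose and Col15a1 and Col12a1 fell, 5 of 26 members where 29.5% of all genes passed.

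**Figure D1:**
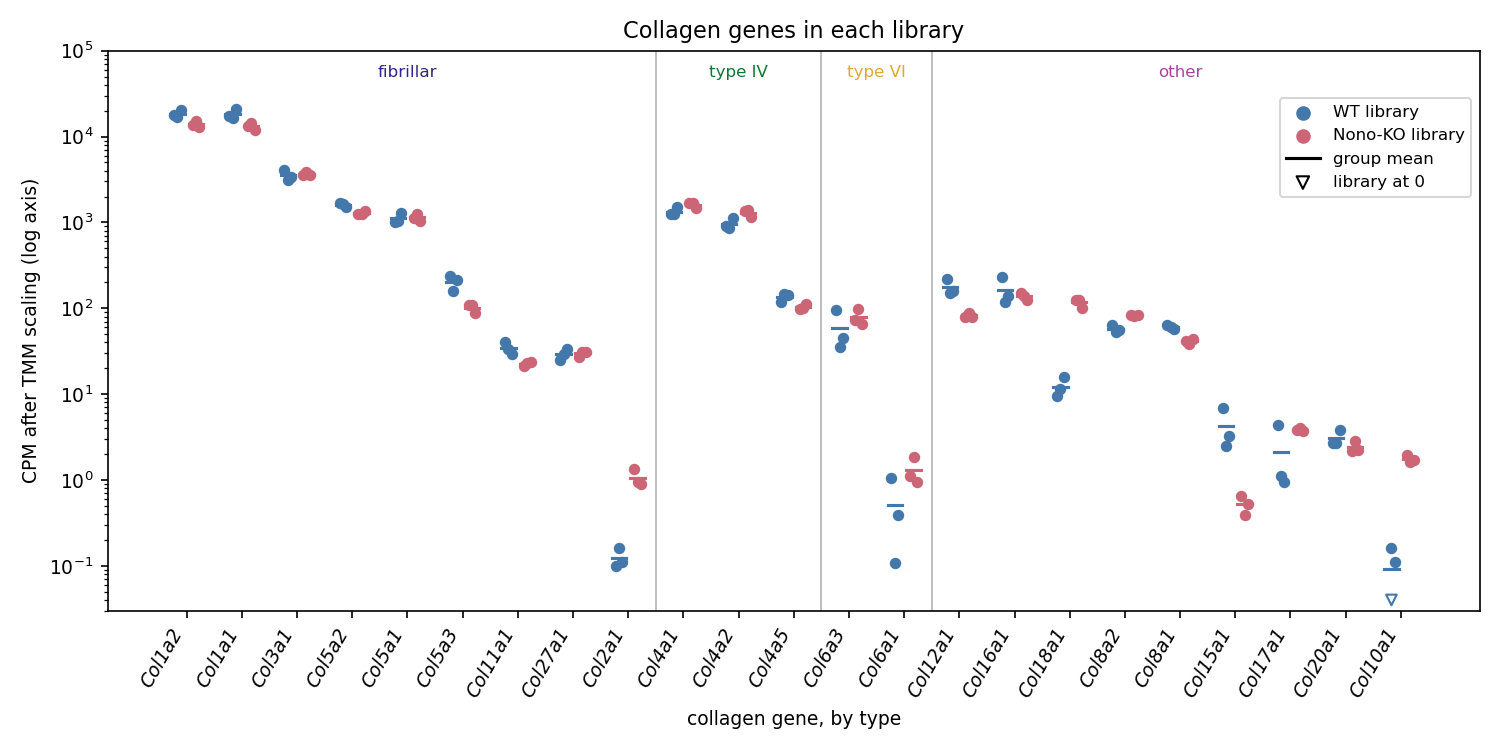
CPM after TMM scaling (vertical log axis) of the 23 collagen genes with a mean of at least 1 CPM in the higher group (horizontal axis, by type), with 1 point per library, bars at the group means and an open triangle for a library at 0. The 3 Nono-KO libraries of Col18a1 lie at 102 to 126 CPM against 9.40 to 15.7 CPM in WT, and those of Col15a1 lie below all WT libraries.

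Type I collagen, the main fibril collagen of most tissues, is built from Col1a1 and Col1a2 chains. These genes held the ranks 1 and 2 by read count in every library, a rank that is not corrected for gene length. Col1a1 stood at 17492, 16556 and 20838 CPM in WT and at 13274, 14461 and 11846 CPM in Nono-KO libraries. All Nono-KO libraries lay below all WT libraries, and the gene fell by 0.47 on the log2 scale (SE, the standard error, 0.10, edgeR adjusted p = 0.00129). Col1a2 had 17839, 17131 and 20482 CPM in WT and 13703, 15049 and 12824 CPM in Nono-KO libraries. It fell by 0.42 (SE 0.09, edgeR adjusted p = 0.00132), again with no overlap of the groups. RefSeq places Sgca, the gene of alpha-sarcoglycan, in overlap with Col1a1. Sgca had a log2 fold change of 0.54, opposite to that of Col1a1. In bulk samples such as these, fewer cells that express a gene and less RNA per cell cannot be told apart.

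Type V and type XI chains are built into the fibrils of more abundant types and limit their width, and Col5a2, Col5a3 and Col11a1 fell while Col5a1 and Col11a2 did not pass. Col5a2, a chain of type V, had 1703, 1641 and 1504 CPM in WT and 1258, 1243 and 1351 CPM in Nono-KO libraries, and fell by 0.33 on the log2 scale (SE 0.08, edgeR adjusted p = 0.00253). Col5a3, a less widespread type V chain, went from 237, 158 and 211 CPM to 108, 110 and 88.4 CPM. Its log2 fold change was -0.98 (SE 0.14), the largest fall among the fibrillar chains. Col11a1, of type XI, had 40.1, 33.7 and 29.7 CPM in WT and 21.1, 22.9 and 23.9 CPM in Nono-KO libraries, with a log2 fold change of -0.61 (SE 0.12). In each of these 3 genes every Nono-KO library lay below every WT library. The adjusted p was 6.60e-05 for Col5a3 and 0.000956 for Col11a1 (edgeR).

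The other abundant fibrillar genes did not pass. Col3a1, the type III chain of distensible tissues, had 4085, 3152 and 3377 CPM in WT and 3529, 3868 and 3617 CPM in Nono-KO libraries, so that the groups overlapped. Its log2 fold change was 0.05 with a 95% interval of -0.16 to 0.27. Col5a1, the type V chain that nucleates type I fibrils, had 1010, 1028 and 1305 CPM in WT and 1136, 1248 and 1045 CPM in Nono-KO libraries, with an interval of -0.20 to 0.27 around 0.04. Col27a1, a fibrillar chain of cartilage and developing tissue, had 25.1, 29.7 and 33.4 CPM in WT and 27.4, 31.3 and 31.1 CPM in Nono-KO libraries, with an interval of -0.24 to 0.29 around 0.03. For these 3 genes the intervals leave out changes as large as the estimated fall of Col1a1. Col11a2 (0.27 to 0.74 CPM over all libraries) and Col24a1 (0.39 to 1.24 CPM) were too low for a narrow interval, which ran from -0.50 to 1.28 and from -1.12 to 0.84.

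Col2a1, the chain of cartilage collagen, was the fibrillar gene that rose, from a level near 0. It had 2, 3 and 2 counts in WT and 23, 17 and 17 counts in Nono-KO libraries, or 0.10, 0.16 and 0.11 CPM against 1.35, 0.95 and 0.90 CPM. The ratio of the scaled totals was 8.57, with an exact 95% interval of 3.90 to 22.3 that covers counting error only (edgeR adjusted p = 6.69e-05). Of the other cartilage genes listed, Acan, Matn1 and Hapln1 were under 1 CPM in both groups. Sox9, the transcription factor of cartilage, had 55.6, 81.8 and 92.4 CPM in WT and 24.3, 23.2 and 28.5 CPM in Nono-KO libraries and fell by 1.59 on the log2 scale, while Comp, a matrix protein of cartilage and tendon, rose from 0.70, 0.43 and 0.50 CPM to 3.63, 2.39 and 2.22 CPM. The cartilage list thus went both ways, and its part in the Col2a1 result was not tested.

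**Figure D2:**
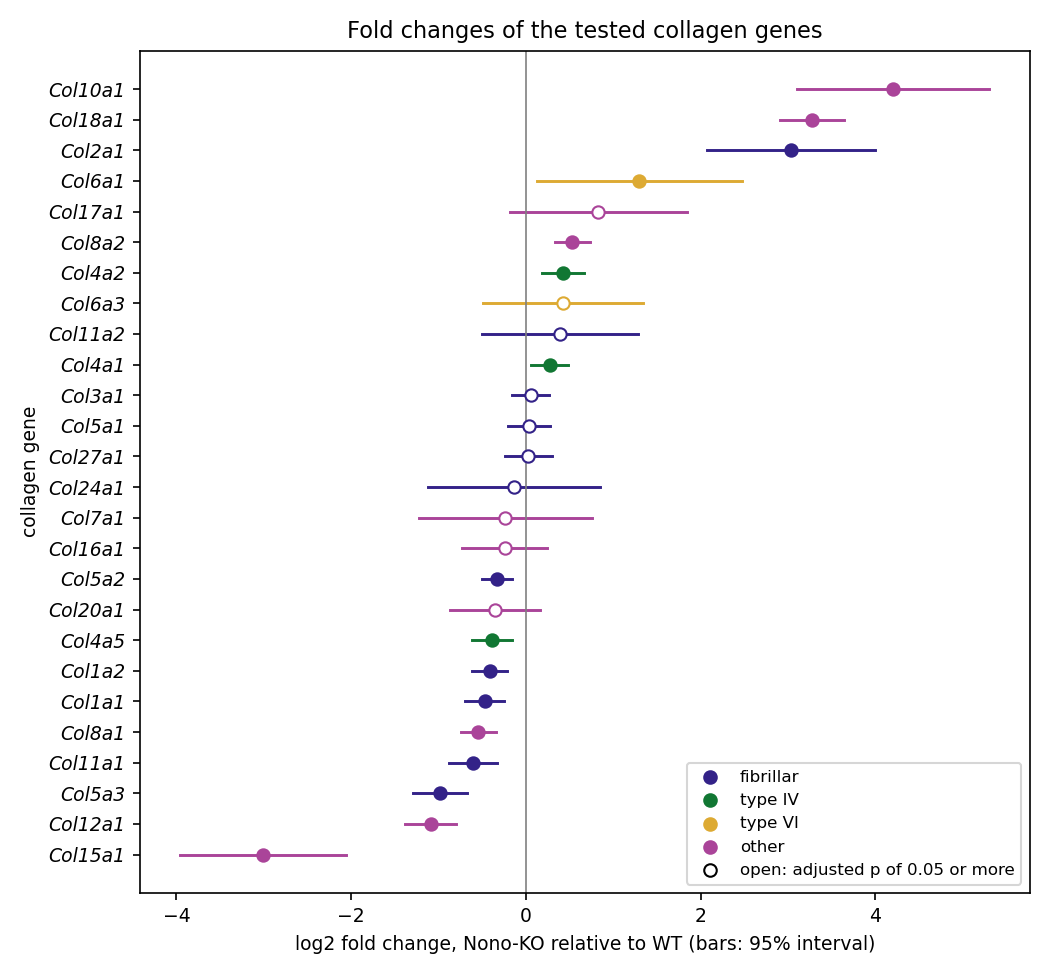
Log2 fold change, Nono-KO over WT (horizontal axis) with its 95% interval for the 26 tested collagen genes (vertical axis), coloured by type, with filled points where the adjusted p was under 0.05. The values run from -3.01 for Col15a1 to 4.20 for Col10a1, and the type I chains sit at -0.47 and -0.42.

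Type IV collagen is made from Col4a1 and Col4a2 in nearly all basement membranes, while the other chains belong to specialised ones. Col4a1 had 1253, 1242 and 1507 CPM in WT and 1695, 1670 and 1469 CPM in Nono-KO libraries. The third Nono-KO library fell within the WT range, and the log2 fold change was 0.27 (SE 0.10, edgeR adjusted p = 0.0228). This call was lost without WT replicate 1 (adjusted p = 0.0561), WT replicate 2 (0.0852), Nono-KO replicate 1 (0.0899) or Nono-KO replicate 2 (0.0723). Col4a2 had 904, 868 and 1116 CPM in WT and 1345, 1393 and 1145 CPM in Nono-KO libraries, with no overlap. It rose by 0.43 on the log2 scale (SE 0.11, edgeR adjusted p = 0.00395), and this call held without each library in turn. Col4a5, a chain of kidney, lung and muscle basement membranes, went the other way, with 117, 148 and 144 CPM in WT and 99.3, 100.5 and 114 CPM in Nono-KO libraries and a log2 fold change of -0.39 (SE 0.11, edgeR adjusted p = 0.00587). Col4a3 had 3 counts in each group and Col4a6 had 5 counts in WT and 1 in Nono-KO libraries, so no fold is given.

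Type VI microfibrils need all of Col6a1, Col6a2 and a longer chain, usually Col6a3. Col6a3 had 94.6, 35.7 and 45.5 CPM in WT and 72.5, 98.2 and 65.9 CPM in Nono-KO libraries. WT replicate 1 stood inside the Nono-KO range and the other WT libraries below it. The log2 fold change was 0.43 with an interval of -0.49 to 1.34, whereas without WT replicate 1 it was 0.95 and passed. The partner chains were close to 0. Col6a1 had 21, 2 and 7 counts in WT and 19, 33 and 18 counts in Nono-KO libraries, and Col6a2 had 5, 0 and 2 counts against 3, 3 and 2. Col6a1 was called higher at a log2 fold change of 1.30 (SE 0.54, edgeR adjusted p = 0.0462) though its groups overlapped. The call was lost without WT replicate 2 (adjusted p = 0.125), WT replicate 3 (0.133), Nono-KO replicate 1 (0.0704), Nono-KO replicate 2 (0.179) or Nono-KO replicate 3 (0.0543), and with DESeq2 (0.0535). Without WT replicate 1 the log2 fold change of Col6a1 was 2.36. Col6a4 and Col6a5 had at most 2 counts in any library.

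Multiplexins are collagens of basement membrane zones whose ends can be cut off as endostatin-like fragments. Col18a1, from which endostatin comes, had 189, 217 and 282 counts in WT and 2153, 2255 and 1925 counts in Nono-KO libraries, or 9.40, 11.6 and 15.7 CPM against 125.9, 125.5 and 101.9 CPM. All Nono-KO libraries were far above all WT libraries. The log2 fold change was 3.27 (SE 0.17, 95% interval 2.91 to 3.64, edgeR adjusted p = 4.95e-08). Col15a1, the related chain of muscle and capillary basement membranes, had 138, 46 and 59 counts in WT against 11, 7 and 10 after knockout. It fell from 6.87, 2.46 and 3.28 CPM to 0.64, 0.39 and 0.53 CPM, a log2 fold change of -3.01 (SE 0.43, edgeR adjusted p = 6.64e-05). Without WT replicate 1, the highest library, its log2 fold change was -2.46. RefSeq lists 2 long noncoding RNAs in overlap with Col15a1, and a long noncoding RNA and a pseudogene in overlap with Col18a1. None of these was tested, and without a stated strand setting their reads cannot be told apart from those of the collagens. Of the 16 called collagen genes, 7 overlap another RefSeq gene. The same limit holds for Col4a1, Col5a2 and Col11a1, which overlap only genes that were not tested.

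Short-chain collagens, which form hexagonal lattices, split by gene. Col8a1 and Col8a2 encode the chains of type VIII, found under endothelium and in the vessel wall. Col8a1 had 63.7, 60.5 and 56.8 CPM in WT and 41.1, 38.9 and 44.0 CPM in Nono-KO libraries, and fell by 0.55 on the log2 scale (SE 0.09, edgeR adjusted p = 0.000216). Col8a2 had 63.8, 53.0 and 56.5 CPM in WT and 83.9, 82.2 and 84.1 CPM in Nono-KO libraries, and rose by 0.53 (SE 0.09, edgeR adjusted p = 0.000281). Neither gene had overlapping groups. Col10a1, the chain of hypertrophic cartilage, had 0, 3 and 2 counts in WT against 33, 29 and 32 after knockout. The ratio of its scaled totals was 19.8, with an exact 95% interval of 8.18 to 62.3 for counting error only (edgeR adjusted p = 1.59e-05). Its log2 fold change of 4.20 was 3.61 without WT replicate 1 and 4.88 without WT replicate 2, and the call held without each library in turn. RefSeq places Col10a1 in overlap with Nt5dc1, and Nt5dc1 had a log2 fold change of -0.05 with an interval of -0.35 to 0.25.

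FACIT collagens, which sit on the surface of fibrils, and the remaining types held 1 gene that fell, Col12a1, and no other call. Col12a1, abundant in tendon and around muscle, had 219, 151 and 157 CPM in WT and 80.1, 88.8 and 78.7 CPM in Nono-KO libraries. The groups were apart and the log2 fold change was -1.09 (SE 0.13, edgeR adjusted p = 1.95e-05). Col16a1 had 233, 119 and 140 CPM in WT and 150, 140 and 126 CPM in Nono-KO libraries, and its log2 fold change of -0.24 became 0.09 without WT replicate 1, with no call in either case. Col20a1 had 2.69, 2.73 and 3.84 CPM in WT and 2.16, 2.84 and 2.22 CPM in Nono-KO libraries and did not pass. Col17a1, a transmembrane collagen of epithelial hemidesmosomes, had 4.33, 1.12 and 0.95 CPM in WT and 3.80, 4.01 and 3.71 CPM in Nono-KO libraries. WT replicate 1 lay above the Nono-KO libraries and the others below them, so that the log2 fold change of 0.83 (edgeR adjusted p = 0.127) became 1.88 and passed without that library. Col7a1, of the anchoring fibrils of skin, had 0.28 to 0.95 CPM over all libraries and did not pass.

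The 13 members that were not tested had few counts. The highest by count in a single library were Col26a1, with 1, 1 and 1 counts in WT against 8, 3 and 10 after knockout, Col19a1, with 0, 0 and 2 against 2, 5 and 6, and Col22a1, with 0, 1 and 0 against 1, 5 and 7. The ratio of the scaled totals was 7.37 (exact 95% interval 2.20 to 38.6) for Col26a1, 6.84 (1.55 to 62.4) for Col19a1 and 13.7 (2.05 to 581) for Col22a1, intervals that cover counting error only. Col9a1, Col9a2, Col9a3, Col13a1, Col14a1, Col4a3, Col4a6, Col6a2, Col6a4 and Col6a5 had at most 5 counts in any library, and differences in them were not detectable at this depth.

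Summed over all 39 members, collagen took 4.74%, 4.37% and 5.02% of all counts in WT against 3.57%, 3.84% and 3.43% after knockout. The sum was 46288 ± 4369 CPM (SD, n = 3) for WT and 36872 ± 2860 CPM (SD, n = 3) for the knockout. Every Nono-KO library lay below every WT library (exact two-sided permutation test p = 0.1, the smallest p that 3 against 3 libraries allow). The fibrillar genes made up most of it, at 43315 ± 4097 CPM (SD, n = 3) for WT and 33308 ± 2612 CPM (SD, n = 3) for the knockout, 0.77 times the WT value. The size and the fall of the fibrillar sum came mostly from type I collagen. Col1a1 averaged 18295 CPM in WT and 13193 CPM in Nono-KO libraries, and Col1a2 averaged 18484 and 13859 CPM. Of the other fibrillar genes Col5a2, Col5a3 and Col11a1 fell, Col2a1 rose and the rest did not pass. Type IV summed to 2274, 2258 and 2767 CPM in WT against 3139, 3164 and 2728 CPM, with the third Nono-KO library below the highest WT library (exact two-sided permutation p = 0.2). Type VI had 95.9, 35.9 and 46.0 CPM against 73.9, 100.3 and 67.0 CPM, of which 97.9% to 99.4% were Col6a3 counts (exact two-sided permutation p = 0.3). The other types summed to 605, 403 and 435 CPM in WT and 491, 486 and 445 CPM in Nono-KO libraries (exact two-sided permutation p = 1). Adjusted over the 4 types these exact permutation p-values were 0.4, 0.4, 0.4 and 1.

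**Figure D3:**
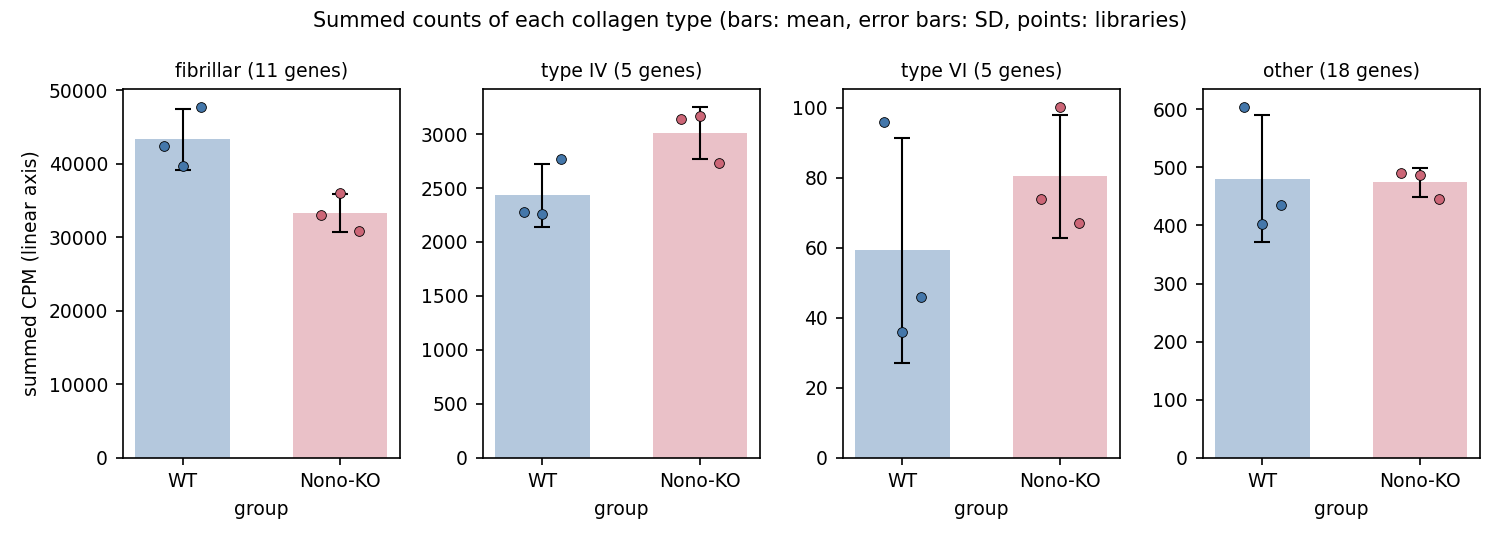
Summed CPM (vertical axes, linear, from 0) of the fibrillar, type IV, type VI and other collagen genes by group. Bar heights give the mean of 3 libraries, whiskers the SD and dots each library, and only the fibrillar panel shows groups that do not overlap.

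The ratio of 2 chains within a library does not depend on how libraries are scaled to each other, and 10 such ratios were compared. The ratio of Col1a2 to Col1a1 counts was 1.02, 1.03 and 0.98 in WT and 1.03, 1.04 and 1.08 in Nono-KO libraries, with overlapping groups, so that the type I chains moved by nearly the same factor. Relative to Col1a1, both Col3a1 and Col5a1 stood higher in every Nono-KO library than in any WT library. Col3a1 to Col1a1 was 0.234, 0.190 and 0.162 in WT and 0.266, 0.267 and 0.305 in Nono-KO libraries, and Col5a1 to Col1a1 was 0.0577, 0.0621 and 0.0626 against 0.0856, 0.0863 and 0.0882, which is 1.44 and 1.43 times the WT ratio. Within type V, Col5a2 to Col5a1 was 1.69, 1.60 and 1.15 in WT and 1.11, 1.00 and 1.29 in Nono-KO libraries, which overlapped.
In type IV, Col4a2 to Col4a1 moved from 0.721, 0.698 and 0.740 to 0.793, 0.834 and 0.779, a small shift of 1.11 times without overlap, and Col4a5 to Col4a1 from 0.0935, 0.119 and 0.0958 to 0.0586, 0.0602 and 0.0773. In type VIII, Col8a2 to Col8a1 moved from 1.00, 0.875 and 0.996 to 2.04, 2.12 and 1.91, or 2.11 times, and its SD between libraries was 0.11 in WT and 0.07 in Nono-KO cells on the log2 scale. The ratio of Col18a1 to Col15a1 went from 1.37, 4.68 and 4.75 to 187, 301 and 183. Both type VI ratios rest on few Col6a1 and Col6a2 counts. For 8 of the 10 ratios the groups did not overlap, each with an exact two-sided permutation p of 0.1, the smallest possible, and 0.125 after adjustment over the 10 ratios. Several ratios share a gene, so they are not independent. For single genes, CPM of the groups did not overlap in 75.1% of all genes tested.

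**Figure D4:**
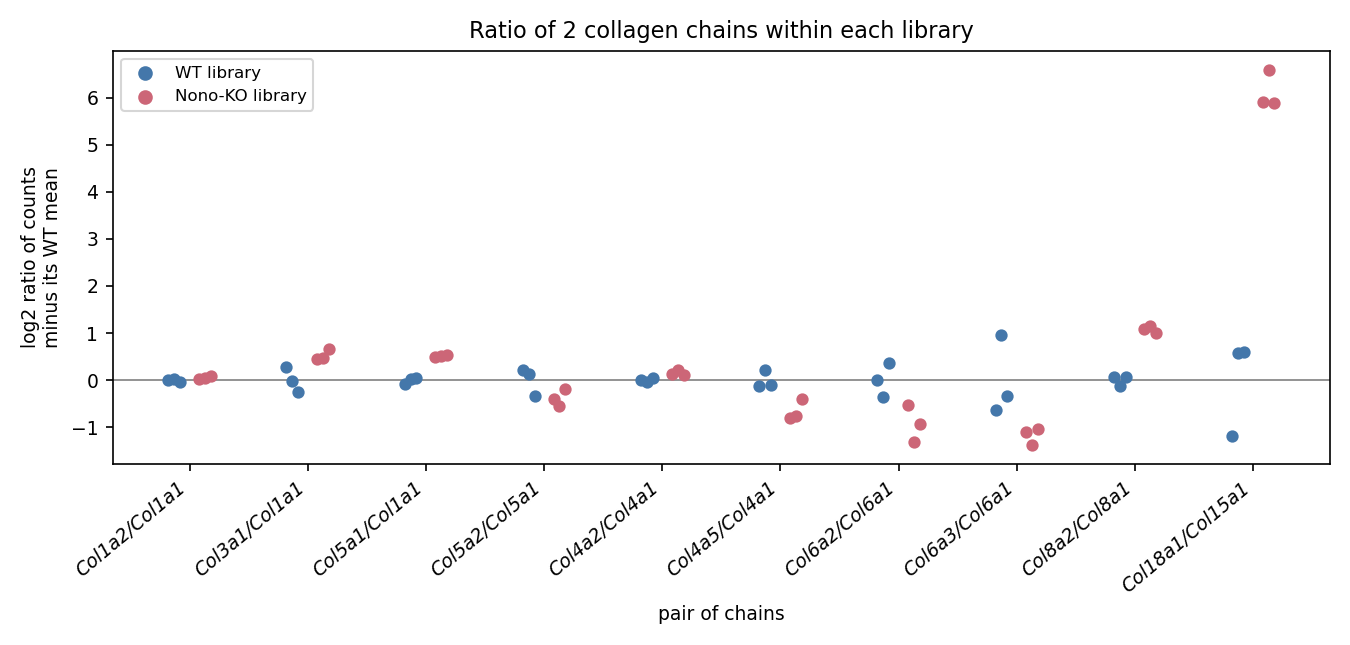
Log2 ratio of the counts of 2 collagen chains in each library, minus the mean of the WT libraries (vertical axis), for 10 pairs of chains (horizontal axis). WT libraries scatter around 0, the Col1a2 to Col1a1 ratio stays near it in Nono-KO libraries, and the Col8a2 to Col8a1 ratio lies 1.08 above it on average.

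Collagen genes varied more between WT than between Nono-KO libraries. The SD of log2 CPM was larger in WT for 24 of the 26 tested members, or 92.3%, against 65.0% of all genes tested, and its median was 0.21 in WT and 0.13 in Nono-KO cells. WT replicate 1 held the highest WT value in 15 of 26 members, or 57.7%, against 33.8% of all genes. It was the WT library with the largest fibroblast marker sum, at 1195 CPM, and the smallest cardiac and skeletal myoblast sums, at 48.1 and 149 CPM. It also had the largest epithelial, endothelial and macrophage sums and the smallest chondrocyte sum of the WT libraries. Single markers did not all follow these sums. The fibroblast marker Pdgfrb was at 588 CPM in WT replicate 1 and 591 CPM in WT replicate 3. The skeletal marker Des was highest in WT replicate 1, at 28.6 CPM against 18.5 and 19.2 CPM. The part of these in the collagen values was not tested. CPM of the groups did not overlap in 14 of 26 members, or 53.8%, against 75.1% of all genes. Without WT replicate 1, Col17a1 and Col6a3 were called higher and Col4a1 was no longer called, and the other members kept their side of the threshold.

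**Figure D5:**
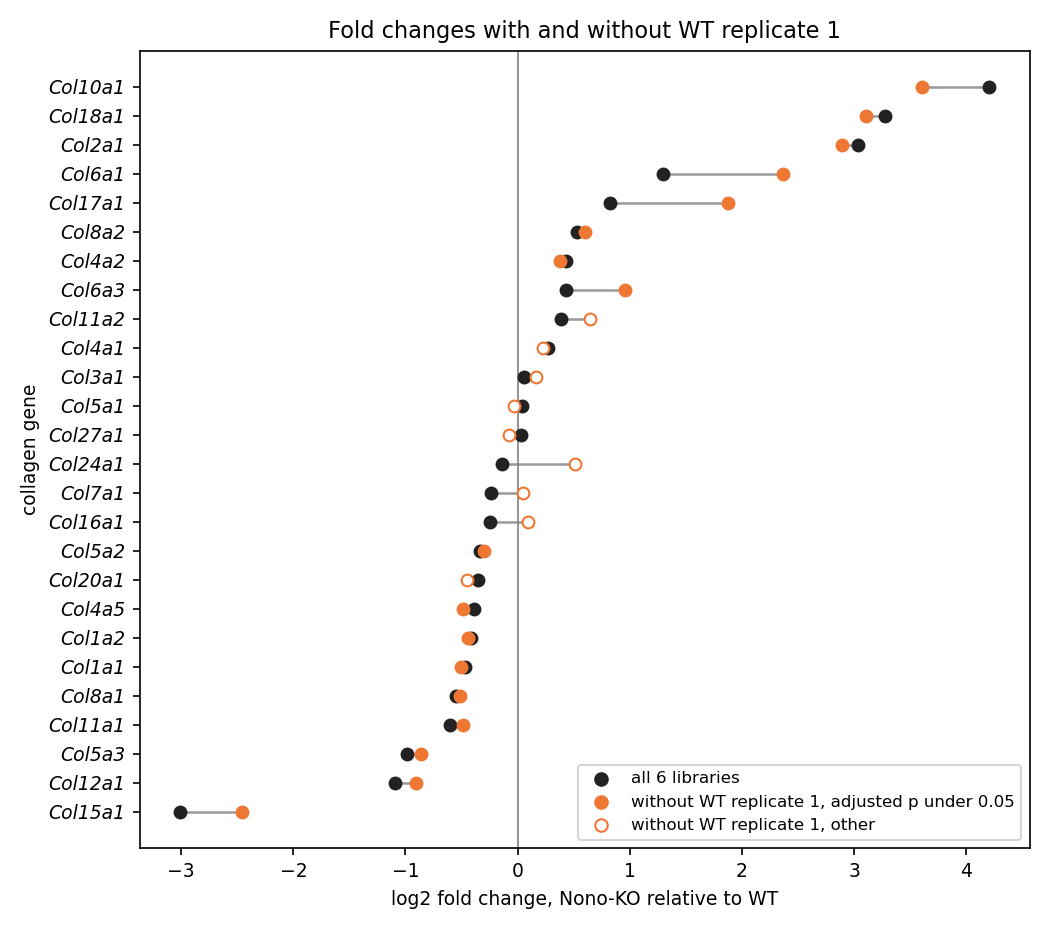
Log2 fold change, Nono-KO over WT (horizontal axis) of the 26 tested collagen genes (vertical axis) with all 6 libraries (black) and without WT replicate 1 (orange, filled where the adjusted p was under 0.05). Col6a1, Col17a1 and Col6a3 move up to 2.36, 1.88 and 0.95, while Col1a1 and Col1a2 stay at -0.51 and -0.45.

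Genes that make, carry and cross-link collagen chains went both ways. Of 39 listed, 33 were tested, of which 9 rose, 14 fell and 10 did not pass, 69.7% called where the share of all genes was 72.2%, with a median log2 fold change of -0.11. Lox, the lysyl oxidase that starts the cross-linking of fibrils, had 243, 294 and 274 CPM in WT and 57.6, 47.2 and 60.8 CPM in Nono-KO libraries, a log2 fold change of -2.29 (SE 0.11). The related Loxl4 had 251, 332 and 333 CPM against 132, 143 and 151 CPM. The other lysyl oxidases went different ways. Loxl2 fell by 0.25 on the log2 scale, Loxl3 rose by 0.62, and Loxl1 did not pass, with a log2 fold change of -0.11. The carriers of bulky procollagen out of the endoplasmic reticulum were lower, with Mia3, also called Tango1, at 62.3, 85.7 and 70.5 CPM in WT and 27.1, 27.6 and 26.4 CPM in Nono-KO libraries. The coat subunits Sec24d and Sec23a fell by 0.92 and 1.01 on the log2 scale. Serpinh1, the collagen chaperone Hsp47, rose, from 3515, 3763 and 3886 CPM to 4537, 4741 and 4405 CPM. Sparc, a collagen-binding protein, and Pcolce, which speeds the trimming of procollagen, did not pass, with log2 fold changes of 0.14 and 0.03.

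Of 18 genes for collagen receptors and turnover, 11 were tested, of which 2 rose, 4 fell and 5 did not pass, 54.5% called where the share of all genes was 72.2%, with a median log2 fold change of -0.07. Itgb1, the beta subunit shared by the collagen-binding integrins, had 733, 862 and 835 CPM in WT and 240.5, 234 and 279 CPM in Nono-KO libraries, a log2 fold change of -1.69 (SE 0.10). Its partner Itga1 had 11.9, 7.33 and 6.90 CPM against 0.94, 1.22 and 1.22 CPM. Itga11, the partner that prefers fibrillar collagen, rose from 205, 80.5 and 94.8 CPM to 289, 291 and 257 CPM (log2 fold change 1.14, SE 0.35, edgeR adjusted p = 0.0252). That call was lost without WT replicate 2 (adjusted p = 0.0606), WT replicate 3 (0.0630), Nono-KO replicate 1 (0.115) or Nono-KO replicate 2 (0.123), and without WT replicate 1 the log2 fold change was 1.66. Ddr2, a receptor kinase for fibrillar collagen, and Adgrg1, a receptor for type III collagen, fell by 0.71 and 0.57 on the log2 scale. Mmp2, a gelatinase named after its values were seen, was low, at 0.05, 0.48 and 0.78 CPM in WT and 2.05, 3.40 and 2.28 CPM in Nono-KO libraries, and its log2 fold change of 2.58 was 3.27 without WT replicate 3. Mmp14, a membrane collagenase, and the cathepsin Ctsl did not pass.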

How the data were processed

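RNA-seq counts of 3 WT and 3 Nono-KO libraries were analysed, grouped by the submitters' labels. The authors deposited raw read counts per gene symbol, without scaling or pooling, as a table of all libraries and as files of single libraries that hold the same values. Trimmomatic, HISAT2 and HTSeq, with mRatBN7.2 as build, stand in the submitters' processing notes, whereas Bowtie2 and Rn6 stand in the methods of the paper. Neither the annotation nor the strand setting is given in these sources, and reads shared by related genes may have been lost or split.

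Counts were fitted in R 4.3.3 with edgeR 4.0.16 (TMM, filterByExpr, robust quasi-likelihood test, 12028 genes tested), and an adjusted p under 0.05 was called. Standard errors (SE) were derived from each log2 fold change and its F statistic. CPM are scaled by TMM. p-values measure the spread between libraries of 1 knockout line. Sums and ratios were compared by exact permutation, with 0.5 added to each count in ratios. Alternatives were DESeq2 1.42.0, other scalings and filters, the replicate block and leaving out each library. The tests were also run on simulated counts in which few genes were changed. Here 72.2% of tested genes were called, so that run does not show how the tests behave at such a share. Library totals of 17612958 to 19253858 counts leave genes with a few counts without a precise fold change. The collagen genes and gene lists were chosen with earlier results of these data known. Per-library values were given where the higher group averaged 1 CPM or more, and of the other lists the 5 largest called changes with at least 5 CPM and the 3 most abundant genes are named. Loxl1, Loxl2 and Loxl3 are named in addition, after their values were seen. No transcript lengths were used here, so levels of different genes are not compared, and proteins are not shown.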

Additional observations from a re-analysis of the deposited data

How the results depend on the processing

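The number of collagen genes that rose (7) and fell (9) stayed within 1.5 times under the other scalings, filters, DESeq2 and without each library. With the study's thresholds 3 of 26 tested rose and 2 fell, where 29.5% of all genes passed. Called were 1 of 11 tested fibrillar genes, 0 of 3 type IV, 0 of 2 type VI and 4 of 10 others. Of the processing genes 4 of 33 tested were called, and of the receptor and turnover genes 3 of 11. The type VI count of 1, Col6a1, was 0 with total counts, with no filter on low counts and with DESeq2, and ranged from 0 to 2 when each library was left out. The type VI sum without Col6a3 differed by 1.47 on the log2 scale. The summed other types differed by 0.0012 on the log2 scale, by -0.0555 with total counts, and by -0.116 to 0.178 without each library (0.178 without WT replicate 1), so they have no stable direction. Of the uncalled genes, total counts gave log2 fold changes of -0.0264 for Col27a1, -0.00576 for Col3a1 and -0.0173 for Col5a1, and no filter gave -0.00933 for Col27a1. Leaving out each library gave -0.0809 to 0.122 for Col27a1, -0.0293 to 0.164 for Col3a1, -0.0345 to 0.160 for Col5a1, -0.431 to 0.513 for Col24a1, -0.437 to 0.0915 for Col16a1 and -0.601 to 0.0501 for Col7a1. The cause was not tested. The deviations of same-numbered libraries correlated at 0.06, -0.19 and -0.22, and those of differently numbered libraries at -0.163 to 0.291. With so few libraries per group these correlations cannot decide whether same-numbered libraries belong together. With the replicate block 8 collagen genes rose and 9 fell, Col17a1 being the gene gained (edgeR adjusted p = 0.0175).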

Other observations

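Of the 31 collagen genes with a promoter entry in RefSeq, GGGCGG on either strand was found in 18 of 34 listed windows of 250 bases (52.9%), against 30.5% of all 33469 windows. CCAAT was in 32.4% of the collagen windows and 34.0% of all, GGAATG in 14.7% and 12.1%, and TGANTCA in 1 window, that of Col6a1 (2.94% against 6.34%). Col24a1 has 3 windows, 2 of them with GGGCGG, and Col6a5 has 2 windows, so the windows are not independent. Col8a2 had 5 matches of GGGCGG and rose, while Col8a1 had 4 and fell. Col3a1 and Col5a2 are neighbours in RefSeq, and their log2 fold changes were 0.05 and -0.33.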
